A study of Mus musculus with 6 samples.

Results

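The 2-oxoglutarate dioxygenases outside the AlkB and Tet families were examined together with the histone demethylases in undifferentiated mouse embryonic stem cells (mESCs) with and without *Alkbh1*. The members were a list of 34 genes, taken by symbol or, where the table carries an older name, by gene identifier. Of these, 33 had a named probe set among the 15357 named genes of the table, and *Kdm4d* had none. The 33 genes were 14 histone demethylases, 16 protein hydroxylases and 3 other oxygenases, and they carried 70 probe sets, the groups of short oligonucleotides whose brightness reflects the abundance of a transcript. A gene with several probe sets was given by the brightest one, the probe set with the highest mean over all arrays. WT and *Alkbh1*-/- mESCs of the C57BL/6 background were each hybridized to 3 arrays at passage 8 and day 0, without treatment. Both were cultured with leukemia inhibitory factor on irradiated feeder fibroblasts, and the study describes them as derived from littermate embryos of heterozygous parents. No label says that a genotype is represented by more than 1 line or that the 3 arrays came from separate cultures.

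Enzymes of the 2-oxoglutarate family use iron, molecular oxygen and 2-oxoglutarate, an intermediate of the citric acid cycle, to hydroxylate their substrates. In the JmjC histone demethylases, hydroxylation of a methyl group on lysine leads to its loss, whereas *Kdm1a* and *Kdm1b* remove methyl groups with flavin as cofactor and are not 2-oxoglutarate enzymes. The protein hydroxylases leave the hydroxyl group in place, on prolines of hypoxia-inducible factors (the Egln enzymes) or on prolines and lysines of collagen (the P4ha and Plod enzymes). ALKBH1, the protein lost in the knockout, belongs to the same superfamily, and JmjC demethylases such as *Kdm3a* and *Kdm4c* are known for their part in mESC self-renewal.

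Values came in 2 forms, both already averaged by the authors. Each probe set had a mean log2 value over all 6 arrays, from 3.22 to 14.67 over the 33142 probe sets with a median of 6.31. A mean for each genotype, on the linear intensity scale, was listed only in a class comparison restricted by the company that made it. Its header states that 7320 genes passed a filter before the comparison, and the entries listed are those with a nominal p under 0.05. The header also counts 45101 genes for its variance estimate, more than the 33142 probe sets with a mean. Counts of probe sets per gene cover only these 33142, and the array may carry others. The sizes of the log2 differences between its genotype means began at 0.37. A probe set outside it therefore has a mean over all arrays and no genotype means here, and this can come from the filter, from the p-value or from the joining of the tables, in which 83 of the 4326 entries found no single probe set. It does not show that the genotypes were alike. Entries were tied to probe sets by their values, because the identifiers printed beside them were out of order, and where the printed identifier would turn a member's direction this is given beside the value. The authors' means carry no spread between arrays, and the deposited statistics of the authors' own comparisons were not used, so the differences below are given without an error or a test.

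The targeted gene was examined first. *Alkbh1* had an authors' mean intensity of 761 in WT and 25.7 in *Alkbh1*-/- mESCs at its brightest probe set, 1434660_at, which is 29.6-fold lower in the knockout. At the dimmer 1438681_at the means were 120 and 34.6, a ratio of WT over *Alkbh1*-/- of 3.47. The knockout means, 4.69 and 5.11 on the log2 scale, lay under the median of all probe sets. At such readings the size of a ratio can depend on how low an absent transcript reads. Joined by value, both probe sets followed the labels. The entries printed beside these identifiers have means of 145 in WT and 62.3 in *Alkbh1*-/- mESCs for the first, and of 26.2 and 39.7, higher in the knockout, for the second. Of 8 markers of undifferentiated ESCs, all 8 were measured, with mean log2 values from 10.05 to 14.49, and none was near the lower end of the array's range. Genotype means were listed at the brightest probe set for 5 of them, beside 14.8% of all named genes, of which 47.3% were higher in *Alkbh1*-/- mESCs. Of the 5, 4 were higher in *Alkbh1*-/- mESCs (*Nanog*, *Klf4*, *Esrrb* and *Zfp42*, with log2 differences of 1.10, 0.67, 0.55 and 0.41) and 1 lower (*Utf1*, −0.49). *Pou5f1*, *Sox2* and *Dppa5a* had no genotype means, so no direction can be given for them.

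At the brightest probe set, 3 of the 33 members (9.09%) had genotype means, beside 14.8% of all named genes, a share that would be 4.87 of 33. Taking any probe set of a gene, 7 members (21.2%) had genotype means, beside 18.2% of all named genes. The counts of members thus lay within a few genes of the background in both readings. With a 1.5-fold ratio between the genotype means as the threshold, 0 of the 33 members passed at the brightest probe set, beside 9.61% of all named genes, a share that would be 3.17 of 33. The 3 members listed at the brightest probe set were *P4htm*, *Plod1* and *Ogfod2*, so that 0 of 14 histone demethylases and 2 of 16 protein hydroxylases were among them. By the identifiers printed beside the entries, the log2 differences of these 3 would be 0.62, −0.98 and 0.75. All 3 would then pass the 1.5-fold ratio, 0.58 on the log2 scale, so the count of 0 holds only for the join by values.

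**Figure D1:**
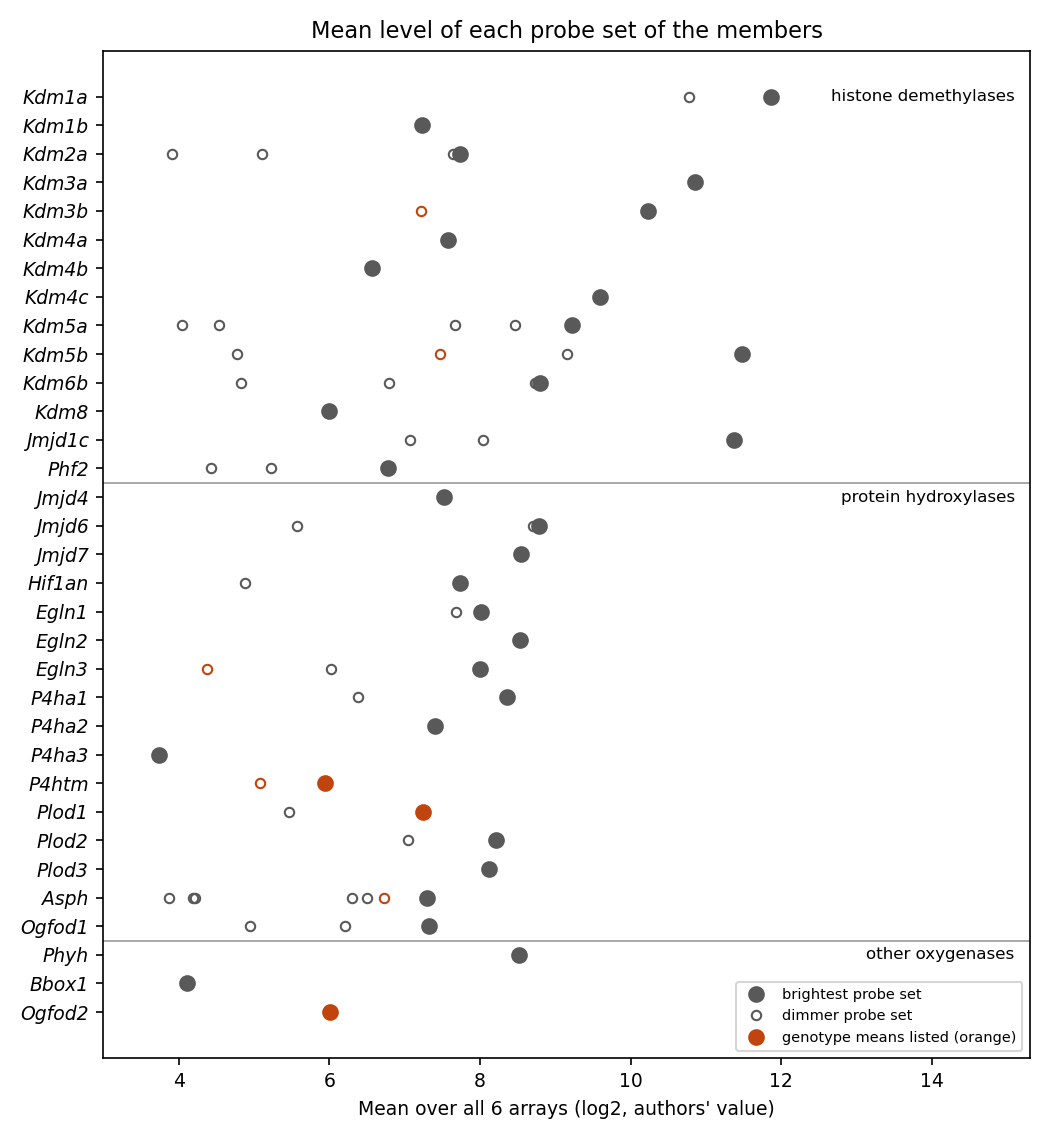
Mean log2 value over all 6 arrays (horizontal axis) of the 70 probe sets of the 33 measured members (rows), with the brightest probe set filled, dimmer ones open, and those with listed genotype means in orange. The 3 filled orange points are *P4htm*, *Plod1* and *Ogfod2*, and all 14 histone demethylases are grey at the brightest probe set. Over all named genes, 14.8% had genotype means at the brightest probe set.

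Among the histone demethylases, the flavin-dependent *Kdm1a*, which removes mono- and dimethylation of lysine 4 on histone H3, had a mean log2 value of 11.87 over all arrays and *Kdm1b* one of 7.24. Brightness also depends on the probes, so these values describe each probe set and are not ranked between genes. The enzymes for H3 lysine 9 were *Kdm3a*, *Kdm3b*, *Kdm4a*, *Kdm4b* and *Kdm4c*, to which *Jmjd1c* and *Phf2* are related. *Kdm3a* had a mean log2 value of 10.86, *Kdm3b* one of 10.23, *Jmjd1c* one of 11.38 and *Kdm4c* one of 9.59, while *Kdm4a*, *Kdm4b* and *Phf2* lay between 6.56 and 7.58. The H3 lysine 4 demethylases *Kdm5a* and *Kdm5b* had mean log2 values of 9.22 and 11.48, and *Kdm6b*, which acts on the Polycomb mark at H3 lysine 27, had 8.79. *Kdm2a*, an H3 lysine 36 demethylase, had a mean log2 value of 7.73, and *Kdm8*, a JmjC protein whose activity is debated, had 6.00. All 14 brightest probe sets were therefore measured between 6.00 and 11.87 on the log2 scale. None had genotype means, beside 14.8% of all named genes, and with 14 genes this says nothing particular of the class.

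At dimmer probe sets, 2 of the 14 histone demethylases did have genotype means, and both were higher in *Alkbh1*-/- mESCs. Taking any probe set, 18.2% of all named genes had them. For *Kdm5b*, the authors' mean at 1457482_at was 127 in WT and 246 in *Alkbh1*-/- mESCs, a ratio of 1.94 and a log2 difference of 0.96. This probe set had a mean log2 value of 7.47, against 11.48 for the gene's brightest one, 1427143_at, which had no genotype means, and neither had the other 2. For *Kdm3b*, the authors' mean at 1458417_at was 115 in WT and 192 in *Alkbh1*-/- mESCs, a ratio of 1.66 and a log2 difference of 0.73. The entry printed beside this identifier has means of 34.8 and 26.6, lower in *Alkbh1*-/- mESCs. Its brightest probe set, 1428320_at, had a mean log2 value of 10.23 and no genotype means. Genotype means were thus available at 1 of 4 probe sets of *Kdm5b* and at 1 of 2 of *Kdm3b*, and whether the other probe sets differ from these cannot be read from the list. Which transcripts these dimmer probe sets read was not examined.

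The oxygen-sensing hydroxylases were *Egln1*, *Egln2* and *Egln3*, which mark hypoxia-inducible factors for destruction, and *Hif1an*, which blocks their coactivator binding. Their brightest probe sets had mean log2 values between 7.74 and 8.53, and none had genotype means. *Egln3*, itself a known target of hypoxia-inducible factors, had genotype means at the dimmest of its 3 probe sets, 1425918_at. The authors' mean there was 27.2 in WT and 15.9 in *Alkbh1*-/- mESCs, a ratio of WT over *Alkbh1*-/- of 1.71. With a mean log2 value of 4.38, this probe set lay well under the median of all probe sets, while the brightest, 1418649_at, had 8.01. *P4htm*, a transmembrane prolyl hydroxylase of the endoplasmic reticulum, had an authors' mean of 51.3 in WT and 73.7 in *Alkbh1*-/- mESCs at its brightest probe set, 1428211_at. The ratio was 1.44, a log2 difference of 0.52. Its other probe set, 1459807_x_at, whose suffix marks possible cross-hybridization, had means of 28.6 and 40.2 and a ratio of 1.40. *P4htm* was the only member with genotype means at 2 probe sets, and both were higher in *Alkbh1*-/- mESCs. With mean log2 values of 5.94 and 5.08, both probe sets lay under the median of all probe sets, 6.31.

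The collagen hydroxylases were the prolyl 4-hydroxylase subunits *P4ha1*, *P4ha2* and *P4ha3* and the lysyl hydroxylases *Plod1*, *Plod2* and *Plod3*. *Plod1* had an authors' mean of 183 in WT and 125 in *Alkbh1*-/- mESCs at its brightest probe set, 1416289_at, a ratio of WT over *Alkbh1*-/- of 1.46 and a log2 difference of −0.55. The brightest probe sets of *Plod2* and *Plod3* had mean log2 values of 8.22 and 8.12, and those of *P4ha1* and *P4ha2* had 8.36 and 7.41, all without genotype means. *P4ha3*, at 3.73, lay near the lower end of the range of all probe sets. *Asph*, an aspartyl and asparaginyl hydroxylase of epidermal growth factor-like domains, had genotype means at 1 of its 7 probe sets, 1450058_at, with 125 in WT and 89.6 in *Alkbh1*-/- mESCs and a log2 difference of −0.48. The entry printed beside this identifier is higher in *Alkbh1*-/- mESCs, with a log2 difference of 0.51. Its brightest probe set, 1420959_at, had a mean log2 value of 7.30 and no genotype means.

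Collagen hydroxylases are abundant in fibroblasts, on which both lines were grown, and the markers of these cells are given beside them. All 16 listed markers of feeder fibroblasts were measured, with mean log2 values from 6.21 to 12.06, and none was near the bottom of the range. Genotype means were listed for 8 of the 16 at the brightest probe set, beside 14.8% of all named genes, with the lower mean in *Alkbh1*-/- mESCs in each. The median log2 difference of these 8 was −0.89, and the other 8, among them *Acta2*, *Dcn*, *Lum* and *Postn*, have no such value at the brightest probe set. At dimmer probe sets, *Col1a2* had means of 1020 in WT and 488 in *Alkbh1*-/- mESCs, and *Col5a1* had 276 and 155. Taking any probe set, 10 of the 16 had genotype means, beside 18.2% of all named genes. The authors' means of the 8 listed at the brightest probe set summed to 7752 in WT and 4037 in *Alkbh1*-/- mESCs. This sum adds intensities of different probe sets and covers only listed genes, so it does not measure the share of feeder cells. *Col1a1*, a collagen chain that the Plod and P4ha enzymes modify, had means of 527 and 253, and *Fn1*, whose probe set had the highest mean log2 value of the list, a reading that also depends on its probes, had no genotype means. The part of feeder RNA in the values of *Plod1* and *Asph* was not tested, and in such bulk samples fewer cells of a type and less RNA per cell cannot be told apart.

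The remaining hydroxylases of proteins were *Jmjd4*, *Jmjd6*, *Jmjd7* and *Ogfod1*, the last of which hydroxylates a proline of the ribosome. Their mean log2 values lay between 7.33 and 8.78, and none had genotype means. Of the oxygenases with other substrates, *Phyh*, which starts the breakdown of phytanic acid in peroxisomes, had a mean log2 value of 8.52. *Bbox1*, which makes the last step of carnitine synthesis, had 4.11 and lay in the lower part of the range. *Ogfod2*, whose substrate is not settled, had 1 named probe set here, 1429238_a_at, with a mean log2 value of 6.01, under the median of 6.31. Its authors' mean was 76.5 in WT and 54.6 in *Alkbh1*-/- mESCs. The ratio of WT over *Alkbh1*-/- was 1.40, a log2 difference of −0.49. The entry printed beside this identifier has means of 52.9 and 88.7, higher in *Alkbh1*-/- mESCs.

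**Figure D2:**
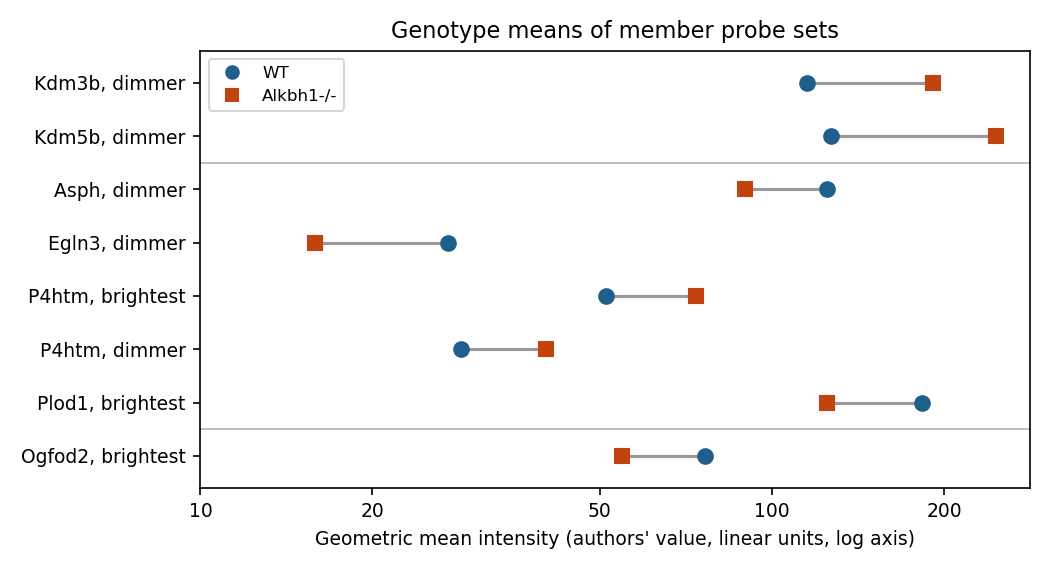
Authors' geometric mean intensity (horizontal log axis) in WT (circles) and *Alkbh1*-/- mESCs (squares) at the 8 member probe sets with genotype means (rows), histone demethylases at the top, protein hydroxylases next and *Ogfod2* last. The means of *Kdm3b*, *Kdm5b* and *P4htm* were higher in *Alkbh1*-/- mESCs and those of *Asph*, *Egln3*, *Plod1* and *Ogfod2* lower, and no error is available.

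The classes were then set side by side. Over the brightest probe sets, the protein hydroxylases with genotype means were *P4htm* and *Plod1*, whose log2 differences of 0.52 and −0.55 had a median of −0.01, and no histone demethylase had a value. With all listed probe sets averaged within a gene, the median was 0.85 for the 2 histone demethylases and −0.51 for the 4 protein hydroxylases. Both medians hold only for the join by values. Each includes a gene whose sign the printed identifier turns, *Kdm3b* (to −0.39) and *Asph* (to 0.51). The median over all 4243 listed probe sets that could be matched was 0.42, and 51.5% of them were higher in *Alkbh1*-/- mESCs. As the list leaves out small differences, its values fall into a positive and a negative group, and a median within it describes mostly which group is larger. With 2 and 4 genes, taken from dimmer probe sets in 4 of the 6 genes, no difference between the classes can be read from these medians.

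**Figure D3:**
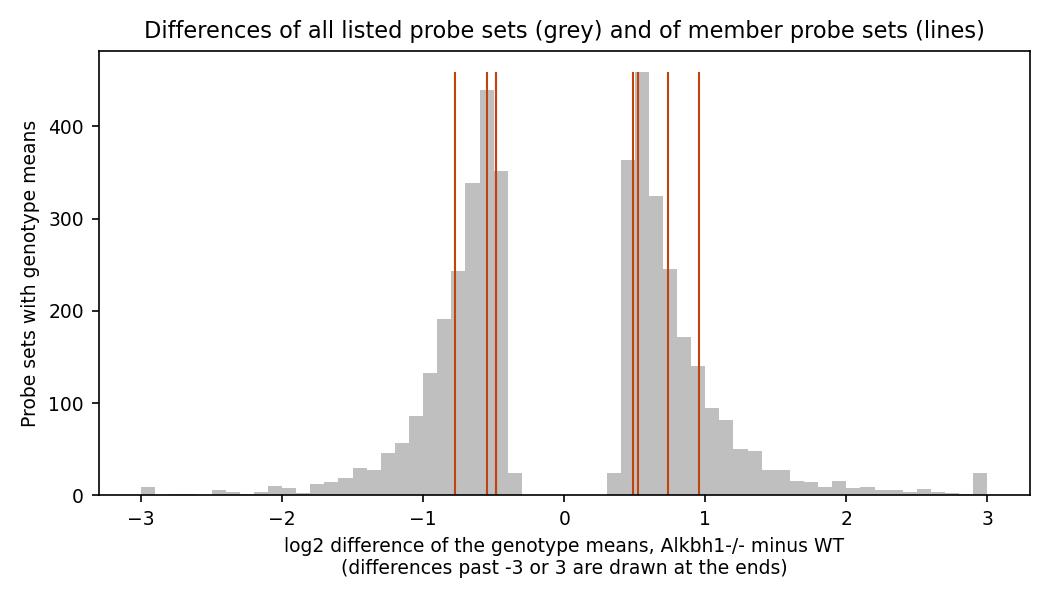
Number of the 4243 matched probe sets (vertical axis) by log2 difference of the authors' genotype means, *Alkbh1*-/- minus WT (horizontal axis, with values past −3 or 3 drawn at the ends), and the 8 member probe sets as lines. The smallest listed difference has a size of 0.37, and the member lines lie between −0.77 and 0.96, with those of *Ogfod2* and *Asph* close together near −0.48.

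None of the 33 members lies on the X or Y chromosome in RefSeq assembly GRCm38.p6. Among 14 further JmjC proteins, all measured, 6 had genotype means at the brightest probe set, beside 14.8% of all named genes, and 5 of these 6 are sex-linked. *Kdm5c*, the X-linked relative of *Kdm5a* and *Kdm5b*, had authors' means of 360 in WT and 694 in *Alkbh1*-/- mESCs, a ratio of 1.93. All 7 of its probe sets had genotype means, with log2 differences from 0.63 to 0.95. *Kdm6a*, the X-linked H3 lysine 27 demethylase related to *Kdm6b*, had means of 619 and 1037, and *Phf8*, an X-linked relative of *Phf2*, had 239 and 429. Each of the 3 was thus higher in *Alkbh1*-/- mESCs by 1.67-fold to 1.93-fold at the brightest probe set. At the dimmer 1427235_at and 1445198_at, the ratios of *Kdm6a* were 2.12 and 2.17. Genotype means were listed at 3 of 4 probe sets of *Kdm6a* and at 1 of 3 of *Phf8*.

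The Y-linked counterparts of *Kdm5c* and *Kdm6a* showed the opposite order. *Kdm5d* had authors' means of 123 in WT and 7.50 in *Alkbh1*-/- mESCs, a ratio of WT over *Alkbh1*-/- of 16.5, and *Uty* had 72.5 and 11.2, a ratio of 6.47. The other 2 probe sets of *Uty* had ratios of 14.8 and 5.04, and the dimmer probe set of *Kdm5d* had no genotype means. The knockout means at the brightest probe sets, 2.91 and 3.49 on the log2 scale, were among the dimmest readings of the arrays, where the size of a ratio depends on how low an absent transcript reads. The sex-linked genes thus differed between the lines in the way lines with different sex chromosomes do, and in these samples the loss of *Alkbh1* and such a difference cannot be told apart in the values of the members, although these are autosomal. *Kdm7a*, an autosomal relative of *Phf8*, was the sixth, with means of 235 and 161 and a ratio of WT over *Alkbh1*-/- of 1.46. The other 8, among them *Kdm2b*, *Jarid2* and *Riox1*, had no genotype means at the brightest probe set.

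Genes that work with the members were followed as lists, whose counts of 1 to 2 genes are read beside the 14.8% of all named genes and say nothing particular of a list. Of 7 partners of *Kdm1a*, 1 had genotype means, the corepressor *Rcor2*, at 477 in WT and 675 in *Alkbh1*-/- mESCs (ratio 1.42). Of 5 genes downstream of the oxygen-sensing hydroxylases, 2 did, both higher in *Alkbh1*-/- mESCs. *Epas1*, a hypoxia-inducible factor subunit and substrate of the Egln enzymes, had means of 440 and 827 (ratio 1.88), and *Vhl*, the ubiquitin ligase subunit that recognizes hydroxylated factors, had 146 and 203 (ratio 1.38). Of 9 further genes of collagen modification, the prolyl 3-hydroxylase *P3h1* had means of 131 in WT and 181 in *Alkbh1*-/- mESCs. Its paralog *P3h3* had 81.2 and 50.0, so that the 2 paralogs went opposite ways.

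Of 16 genes that supply 2-oxoglutarate or handle its inhibitors, 2 had genotype means at the brightest probe set, a share close to the 14.8% of all named genes. *Idh2*, the mitochondrial isocitrate dehydrogenase that makes 2-oxoglutarate, had authors' means of 524 in WT and 1345 in *Alkbh1*-/- mESCs, a ratio of 2.57. At its dimmer probe set, 1453601_at, the ratio was 1.40. *Idh3g*, a subunit of the other mitochondrial isocitrate dehydrogenase and an X-linked gene, had means of 2943 and 5295, a ratio of 1.80. The other 14, among them *Idh1*, *Ogdh* and *Glud1*, had no genotype means at the brightest probe set. *Got2*, the mitochondrial aspartate aminotransferase, had them at a dimmer one, with 47.1 in WT and 27.1 in *Alkbh1*-/- mESCs.

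**Figure D4:**
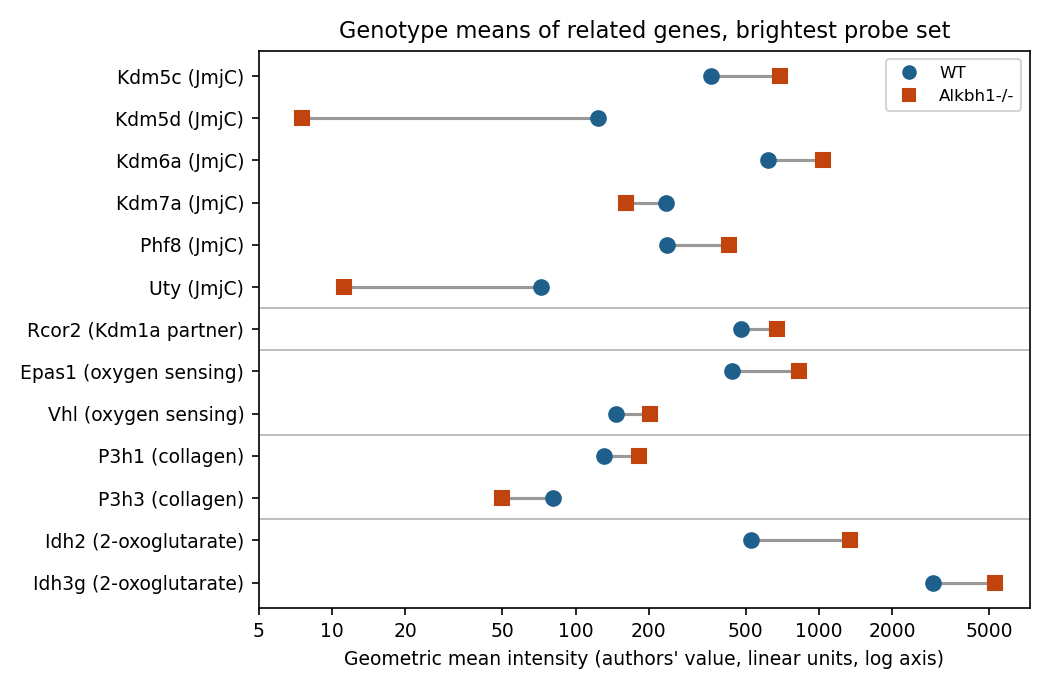
Authors' geometric mean intensity (horizontal log axis) in WT (circles) and *Alkbh1*-/- mESCs (squares) at the brightest probe set of the 13 related genes with genotype means (rows, with the list in brackets). The longest bars are those of the Y-linked *Kdm5d* and *Uty*, lower in *Alkbh1*-/- mESCs, and *Idh2* has the largest ratio, 2.57, among the genes that are higher.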

How the data were processed

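Total RNA of WT and *Alkbh1*-/- mESCs was hybridized to Affymetrix mouse genome arrays, 3 per genotype, and the authors normalized all arrays together with RMA (robust multiarray average). Probe set means over all arrays are log2 values as deposited. Genotype means are geometric means of intensity, as deposited in a class comparison made by a company; its column for WT is mislabelled, as the description that came with it says. The tables also hold the authors' fold changes, statistics and p-values, which were not used. Array number limits precision.

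An entry of the class comparison was tied to a probe set where the mean of its log2 genotype means equalled the probe set's mean within 5e-07, with 1 candidate on each side. This matched 4243 of 4326 entries (18 had several candidates and 65 none), and 0 entries had their nearest mean between 1e-06 and 1e-05. Only 8 stood beside the same identifier, although the 4243 matched probe sets were all among the identifiers printed, so the identifiers appear to have lost their order. The join was tested on simulated data. RefSeq genes (GRCm38.p6) named 28205 of 33142 probe sets by gene identifier, accession or symbol. The genes named are the members, *Alkbh1* and genes of related lists with genotype means. Not all of the latter are named, and most feeder fibroblast markers with genotype means are left out. Other genes, such as *Fn1* and *Idh1*, stand as examples of those without at the brightest probe set. The members and lists were chosen with earlier results of these data known. No test was computed, since single-array values were not at hand and the authors' own statistics were not used. Python 3.11.15, pandas 2.3.3, NumPy 2.4.6 and matplotlib 3.10.9 were used.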

Additional observations from a re-analysis of the deposited data

How the results depend on the processing

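Only the authors' means were used, without the statistics deposited beside them, so the values carry no spread between arrays, replicates could not be left out in turn, and probe sets outside the class comparison have no genotype means. Taking members only by the symbol as listed found 12 of the 33. A match tolerance 2 times smaller or larger left the count of members with genotype means at 3, and counting any probe set of a gene gave 7. Ratio thresholds of 2-fold and 1.2-fold gave 0 and 3 members, which follows from the 1.5-fold count and from the list's smallest difference and is no check. With all listed probe sets averaged, the median log2 difference was −0.51 for the protein hydroxylases, in place of −0.01, and 0.85 for the histone demethylases, which had no value before; the dimmer probe sets of *Egln3*, *Asph*, *Kdm3b* and *Kdm5b* entered. The identifiers printed beside the entries, an alternative chosen after seeing the data, turned the sign at 3 of the 8 member probe sets, with log2 differences of 0.75 for *Ogfod2*, 0.51 for *Asph* and −0.39 for *Kdm3b*, and gave 0.62 for *P4htm* and −0.98 for *Plod1* at the brightest probe set. With these identifiers, all 3 members listed at the brightest probe set pass the 1.5-fold ratio, in place of 0. The class medians were taken from the join by values only. At the second probe set of *Alkbh1* the printed identifiers gave 0.60, higher in the knockout. No paired analysis was possible because the tables carry no values of single arrays.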
